A study of Mus musculus with 6 samples.

Results

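Poly(ADP-ribose) (pADPr) acts partly by recruiting proteins that bind it, and the RNA of 9 mouse genes that encode such readers, or ubiquitin ligases directed by the polymer, was examined in 3T3 cells with and without human poly(ADP-ribose) glycohydrolase (hPARG). The genes were H2afy, H2afy2, Chd1l, Chfr, Rnf146, Trip12, Dtx2, Smarca5 and Aifm1. The rule was a list of names, drawn up for the biochemistry of the products with no measured value in it, and all 9 were found among the 41819 genes of the table. Earlier results of these data were known when the list was chosen.

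3T3 is a mouse embryo fibroblast line, labelled malignant here. All 6 dishes came from 1 puromycin-resistant clone that carries a lentiviral cassette, in which a doxycycline-responsive promoter drives hPARG together with the fluorescent protein mClover3. The 3 dishes of the hPARG group received 500 ng/ml doxycycline for 72 h, and the 3 control dishes received none. No dish held cells without the cassette, so the effects of doxycycline and of hPARG cannot be told apart. The dishes were split from 1 clone, so the p-values measure the spread between dishes and not between independent lines. The transgene is human and its level was not analysed here, while mouse Parg stood at 51.3 ± 4.63 CPM (counts scaled to library size) in control and 52.7 ± 4.31 in hPARG dishes (SD, n = 3 each).

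Poly(ADP-ribose) polymerases attach chains of ADP-ribose to proteins, above all at DNA breaks, and PARG cuts the chains. Macrodomains recognise the terminal ADP-ribose, PBZ zinc fingers and WWE domains recognise features inside the chain, and several ubiquitin ligases use a PBZ or WWE domain to find polymer-marked targets. RNA levels report the supply of these readers and not their binding to the polymer, which depends on the protein and on the pADPr present.

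Whether a product can read the polymer is decided for H2afy by a single exon, whose sequences are shown for that reason. H2afy (macroH2A1, chr13:56073619-56136361, GRCm38, minus strand) has 2 coding transcripts in the annotation, H2afy-201 and H2afy-202, that differ in a mutually exclusive exon 6 of 9. This exon lies in the part that encodes the macrodomain. It is known that only the macroH2A1.1 splice form binds ADP-ribose, and the macroH2A1.2 form does not. Which transcript encodes which form was not assigned here, and the order of the transcripts does not give it. The coding exon of H2afy-201 (100 bases, chr13:56089758-56089857) and that of H2afy-202 (91 bases, chr13:56088252-56088342) are shown 5′ to 3′ in capitals, with 12 bases of the shared neighbouring exons on each side in lower case.
H2afy-201: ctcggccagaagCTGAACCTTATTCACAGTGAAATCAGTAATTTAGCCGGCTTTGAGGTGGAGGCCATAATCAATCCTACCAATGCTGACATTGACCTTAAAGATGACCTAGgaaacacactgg
H2afy-202: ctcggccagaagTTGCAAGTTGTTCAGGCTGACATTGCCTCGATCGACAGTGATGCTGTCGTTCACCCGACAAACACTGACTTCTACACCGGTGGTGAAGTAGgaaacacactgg
Only 48 bases are identical when the exons are aligned, 48.0% of the longer exon, while the flanks are the same. Counts per gene pool both forms, so the H2afy values below give the sum of a form that reads ADP-ribose and a form that does not.

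The macroH2A pair also differed at the start site. The RefSeq promoters (GRCm38.p6, 250 bases before to 50 after the start) are shown for H2afy, which with Smarca5 had the highest RPKM of the 9, and H2afy2, which had the lowest, with every CpG in capitals. They are chr13:56135501-56135800 and chr10:61783815-61784114, both on the minus strand.
H2afy: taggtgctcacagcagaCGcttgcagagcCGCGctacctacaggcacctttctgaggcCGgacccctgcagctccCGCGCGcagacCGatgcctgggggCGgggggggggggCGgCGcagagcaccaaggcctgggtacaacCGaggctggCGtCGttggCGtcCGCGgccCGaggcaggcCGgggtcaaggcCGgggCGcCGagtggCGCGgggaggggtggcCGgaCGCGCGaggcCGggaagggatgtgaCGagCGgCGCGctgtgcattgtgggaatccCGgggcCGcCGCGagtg
H2afy2: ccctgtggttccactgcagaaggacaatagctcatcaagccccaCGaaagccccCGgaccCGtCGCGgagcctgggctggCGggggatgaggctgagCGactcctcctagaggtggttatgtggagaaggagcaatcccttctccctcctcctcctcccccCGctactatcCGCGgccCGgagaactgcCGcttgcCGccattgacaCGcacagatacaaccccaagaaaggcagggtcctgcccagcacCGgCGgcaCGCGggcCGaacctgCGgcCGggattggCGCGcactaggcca
The H2afy window held 37 CpG at 74.3% GC and the H2afy2 window 23 CpG at 65.7% GC, both above the medians of 7 CpG and 52.7% over 32851 RefSeq promoters of this length. A CpG-rich start was therefore present at the gene near the detection floor and at the abundant gene alike.

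In the 6 dishes as a whole, total counts ranged from 21619908 to 25263818 per dish, 11509 genes passed the filter on low counts, and 10 of them (0.0869%) differed between the groups at a false discovery rate (FDR, Benjamini-Hochberg) under 0.05 in edgeR's quasi-likelihood test. All 10 also passed 2-fold. An unadjusted p under 0.05 was found for 455 genes (3.95%), and 1107 genes (9.62%) had groups that did not overlap in CPM. The dishes numbered 2 stood apart from the others in both groups, and without them 40 of 11589 genes were called (0.345%). All 9 fibroblast markers were detected, at a summed level of 3188 to 3565 RPKM, which is counts per length and library total, in control and 3391 to 3815 in hPARG dishes. None of them was called, but 8 of the 9 values were above 0 (median log2 fold change 0.30) and 4 had both an unadjusted p under 0.05 and groups that did not overlap. These were Col1a1 (0.58), Col3a1 (0.39) and Thy1 (0.30), higher with hPARG, and Pdgfra (-0.40), the only marker that was lower. Their part in the values below was not tested. Of 7 markers of leukocytes, macrophages, epithelium and endothelium only Cd68 passed the filter, with an unadjusted p of 0.603. Adgre1 was at 0 counts in every dish, and Epcam was at 0 in all hPARG dishes and at 0 to 2 counts in control dishes. Ptprc and Pecam1 had 0 to 5 counts per dish and Krt8 2 to 12. Cdh5 had 6 to 11 counts in control and 3 to 5 in hPARG dishes and was not tested. The summed RPKM of the 7 was 0.730 to 1.13 in control and 0.593 to 0.973 in hPARG dishes.

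Expression of the reader and ligase genes was not detectably different with hPARG. Of the 9 genes, 8 passed the filter, and 0 of the 8 were called, beside the 0.0869% of all tested genes. None had an unadjusted p under 0.05, beside 3.95% of all genes, and the groups overlapped for every one, beside 9.62% without overlap. By DESeq2, 0 of the 9 were called as well, beside 48 of 16896 tested genes (0.284%), of which 12637 received an FDR. The fitted difference was below 0 for 5 genes and above 0 for 3. The largest was 0.12 on the log2 scale, a size that 38.8% of the tested genes reached or passed. The median absolute log2 fold change was 0.0570 for the 8 genes and 0.0931 for all tested genes. Their 95% intervals ran from 0.708-fold (Rnf146) to 1.38-fold (Trip12) at the extremes, so changes of 2-fold lay outside each interval. The narrowest, of H2afy, ran from 0.832-fold to 1.13-fold. For each gene, changes inside its own interval were not excluded with 3 dishes per group. In bulk RNA, fewer expressing cells and less RNA per cell cannot be told apart.

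**Figure D1:**
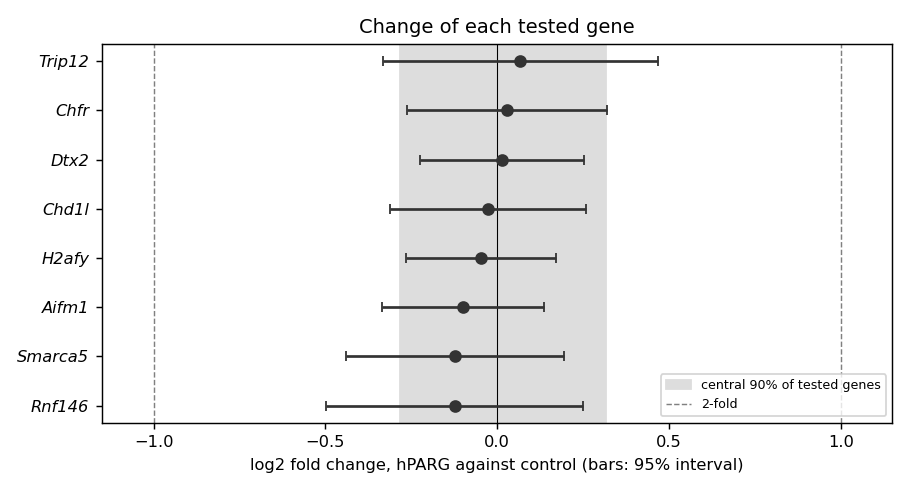
The fitted log2 fold change of the 8 tested genes (horizontal axis, hPARG against control; points) with its 95% interval (bars), beside the central 90% of all tested genes (grey band, -0.28 to 0.32) and the 2-fold lines (dashed). All points lie between -0.12 and 0.07, and every interval includes 0.

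H2afy encodes the histone variant macroH2A1, whose macrodomain protrudes from the nucleosome. Control dishes 1, 2 and 3 had 115.8, 113.2 and 113.0 CPM, and hPARG dishes 1, 2 and 3 had 115.6, 113.6 and 101.7 CPM, the order in which values of dishes are given throughout. Dish numbers were not taken to pair the dishes of the groups. An order between same-numbered dishes, where given below, is a description and not a paired result. The control values were nearly equal, and only hPARG dish 3 fell outside their range. The log2 fold change was -0.05 (SE 0.0942, 95% interval -0.27 to 0.17, FDR 0.999 by edgeR), the narrowest interval of the 8 genes. In the annotation 7.36% of its exon bases overlap Gm47071 on the opposite strand, a gene with 0 counts in every dish.

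H2afy2 (chr10:61738665-61784147, minus strand) encodes the related variant macroH2A2, whose macrodomain does not bind ADP-ribose. Its RNA was near the detection floor, with 8, 6 and 3 counts in control and 11, 7 and 3 counts in hPARG dishes. Dish 3 of each group was at the detection floor of 3 counts, which corresponded to 0.117 to 0.141 CPM depending on the dish. The summed counts were 17 in control (exact Poisson 95% interval 9.90 to 27.2) and 21 in hPARG (13 to 32.1), and the gene did not pass the filter. Fitted with no filter, its log2 fold change was 0.36 with an unadjusted p of 0.592 (edgeR, FDR 0.998). A part of its exons, 10.7% of their bases, lies opposite Aifm2, which had 293 to 387 counts per dish, and the share of the H2afy2 counts that could come from Aifm2 was not tested.

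The 2 macroH2A genes can be compared per length. H2afy RPKM was 377, 446 and 813 times that of H2afy2 in control dishes and 233, 401 and 752 times in hPARG dishes. The log2 ratio was 9.01 ± 0.582 in control and 8.69 ± 0.846 in hPARG (SD, n = 3 each), a difference of -0.32 within the spread of the dishes (exact permutation test, two-sided, p = 0.6, where 0.1 is the smallest p possible). From pooled counts the ratio was 479 in control (exact binomial 95% interval 299 to 822) and 363 in hPARG (237 to 587). As a share of all macroH2A counts, H2afy2 held between 0.125% (Clopper-Pearson 95% interval 0.0258 to 0.365) in control dish 3 and 0.434% (0.217 to 0.776) in hPARG dish 1, and the intervals of all 6 dishes overlapped. Intervals of this kind cover counting error only. In both groups the macroH2A RNA of these fibroblasts was thus almost wholly from H2afy.

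Chd1l (chr3:97560742-97610203, minus strand) encodes ALC1, a chromatin remodeller that its macrodomain recruits and activates at sites of poly(ADP-ribosyl)ation. CPM was 14.6, 12.9 and 15.4 in control and 15.2, 12.6 and 14.4 in hPARG dishes. The lowest dish of each group was dish 2, and the ranges overlapped almost entirely. Its log2 fold change of -0.03 (SE 0.124, 95% interval -0.31 to 0.26) was among the smallest of the set. Gm43075, with 0 counts, lies opposite 3.27% of its exon bases.

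Chfr (chr5:110135842-110171972, plus strand) encodes a mitotic checkpoint ubiquitin ligase with a PBZ zinc finger. Its CPM was 20.0, 17.1 and 21.7 in control and 21.9, 18.8 and 19.3 in hPARG dishes. Dish 2 was again the lowest of each group, and the hPARG values lay inside the control range except for dish 1, slightly above it. The log2 fold change was 0.03 (SE 0.126, 95% interval -0.26 to 0.32) with all dishes and -0.014 without both dishes numbered 2, so its direction is not resolved. Of its exon bases 9.62% lie opposite Gm15787, which had 0 counts.

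Rnf146 (chr10:29344176-29362442, minus strand) encodes Iduna, the ligase whose WWE domain binds the iso-ADP-ribose unit of the chain and which ubiquitinates tankyrase-modified proteins such as axin. CPM was 22.5, 28.2 and 22.0 in control and 18.2, 25.9 and 22.5 in hPARG dishes. Dish 2 was the highest of each group and hPARG dish 1 the lowest of all 6. The log2 fold change of -0.12 (SE 0.161, 95% interval -0.50 to 0.25) was by a small margin the largest of the set in size, and its interval reached the lowest fold of any member, 0.708. The value has a limit, since 76.8% of its exon bases lie opposite Echdc1 or Gm30698 and use of strand in counting is not given in the sources used here. Echdc1 had 460 to 657 counts per dish, against 398 to 655 for Rnf146, so reads of the pair could be mixed. The Echdc1 log2 fold change was 0.06 (SE 0.109), and Gm30698 had 0 counts.

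Trip12 (chr1:84721189-84840516, minus strand) encodes a HECT ubiquitin ligase with a WWE domain that is known to restrain the amount of PARP1 on chromatin. Its CPM was 206.2, 272.2 and 194.1 in control and 207.4, 282.5 and 214.4 in hPARG dishes. Within each group dish 2 stood well above the others, and each hPARG value was above the control value of the same number. The log2 fold change was 0.07 (SE 0.173, 95% interval -0.33 to 0.47), the widest interval of the 8 genes. Without both dishes numbered 2 the value was 0.08 with a smaller SE of 0.0885, and the unadjusted p remained at 0.385. Parp1, the target of this ligase, stood at 160.3 ± 21.5 CPM in control and 154.1 ± 18.5 in hPARG dishes (log2 fold change -0.06, SE 0.137).

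Dtx2 (chr5:135994800-136032872, plus strand) encodes a Deltex ligase, with WWE domains at its start and a Deltex C-terminal domain that can bind ADP-ribose and place ubiquitin on it. CPM was 30.7, 32.3 and 27.9 in control and 30.9, 31.9 and 28.9 in hPARG dishes. Same-numbered dishes differed little, and both ranges nearly coincided. Its log2 fold change was 0.015 (SE 0.103, 95% interval -0.22 to 0.25) and turned to -0.014 when counts were scaled by library size only.

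Smarca5 (chr8:80698507-80739497, minus strand) encodes SNF2H, the ATPase of ISWI remodelling complexes, which arrives at DNA breaks in a manner that depends on poly(ADP-ribosyl)ation and on the ligase RNF168. Its CPM was 307.4, 361.9 and 283.7 in control and 284.5, 332.1 and 258.8 in hPARG dishes. Each hPARG value was below the control value of the same number, yet hPARG dish 2 exceeded control dishes 1 and 3. The log2 fold change was -0.12 (SE 0.137, 95% interval -0.44 to 0.19, unadjusted p = 0.398, FDR 0.999 by edgeR). On the same strand, 3.61% of its exon bases overlap Gm45872, which had 0 counts.

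Smarca1, which encodes the other ISWI ATPase SNF2L, had 2 or 3 counts in every dish. Pooled over dishes, Smarca5 exceeded Smarca1 per length by 2740 times in control (exact binomial 95% interval 1390 to 6350) and 2450 times in hPARG (1240 to 5670). With Smarca1 at the floor, the ratio of a dish is set by whether 2 or 3 counts were found, so no difference between the groups is read from it. ISWI ATPase RNA was nearly all from Smarca5 in both groups.

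Aifm1 (chrX:48474944-48513563, minus strand) encodes apoptosis-inducing factor, a mitochondrial flavoprotein that binds pADPr and moves to the nucleus in parthanatos, the form of cell death driven by excess polymer. CPM was 93.9, 95.8 and 82.9 in control and 83.3, 89.7 and 81.4 in hPARG dishes. Every hPARG value was below the control value of the same number, but control dish 3 lay below hPARG dishes 1 and 2. With a log2 fold change of -0.10 (SE 0.101, 95% interval -0.33 to 0.13) it had the smallest unadjusted p of the set, 0.354, and an FDR of 0.999 by edgeR.

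Aifm2 encodes FSP1, a relative of AIF that protects membranes from lipid peroxidation. Per length, Aifm1 exceeded it by 9.58, 8.74 and 8.79 times in control and by 8.29, 8.23 and 7.51 times in hPARG dishes. All hPARG ratios were below all control ratios. The log2 ratio was 3.17 ± 0.0735 in control and 3.00 ± 0.0800 in hPARG (SD, n = 3 each), a difference of -0.17 with p = 0.1 (exact permutation test, two-sided), the smallest p that 3 against 3 dishes can give. This was 1 of 3 ratios computed, and neither gene alone passed the test, with an Aifm2 log2 fold change of 0.07 (SE 0.109). Pooled counts gave 9.05 in control (exact binomial 95% interval 8.48 to 9.68) and 8.01 in hPARG (7.50 to 8.57). These intervals cover counting error only and not the spread between dishes, so no group difference is read from them.

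The 3 genes whose log2 CPM followed Aifm1 most closely over the 6 dishes were Krt80 (Pearson r 0.997), Nup50 (0.994) and Slc35a2 (0.992). An r above 0.9 was reached by 168 of 11508 genes, and all genes share the same 6 libraries, so the values are a description.

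**Figure D2:**
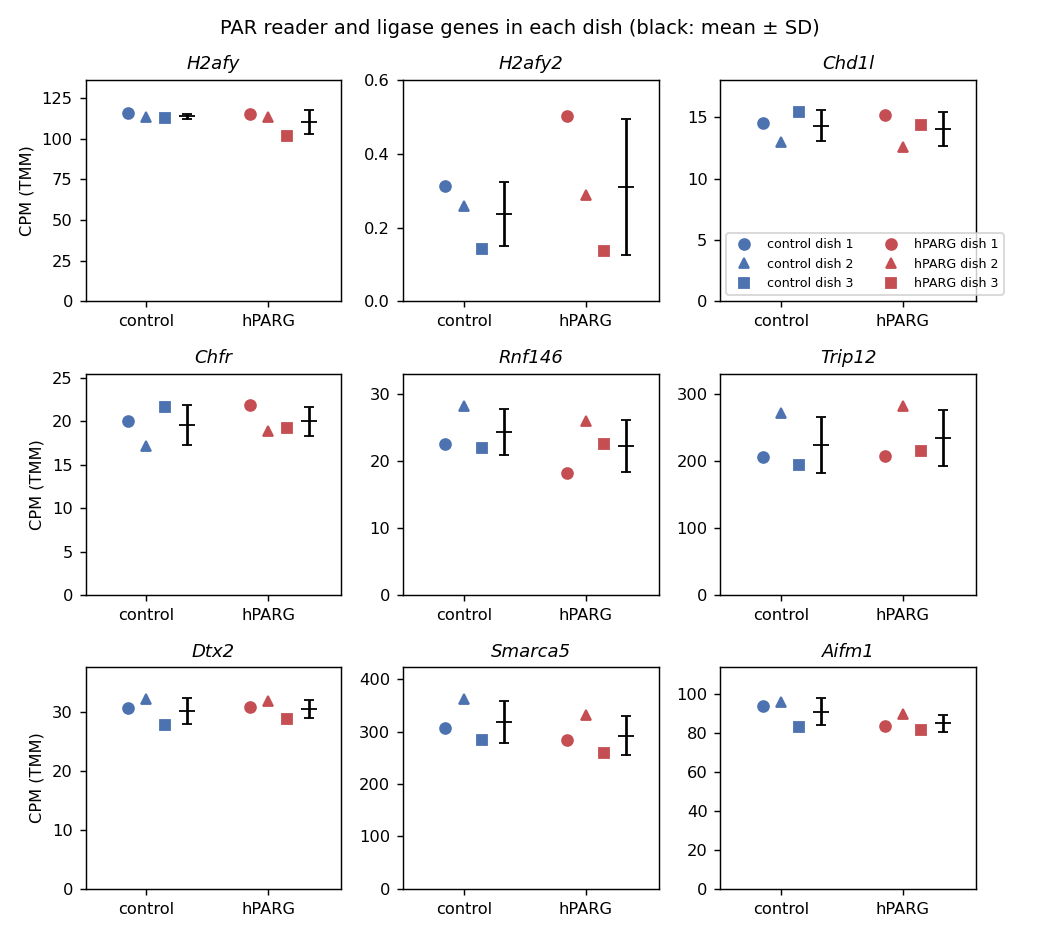
CPM scaled by TMM (vertical axis, from 0) of each of the 9 genes in every dish, by group (horizontal axis; circles, triangles and squares are dishes 1, 2 and 3), with the mean ± SD in black. Control and hPARG points overlap in every panel, and dish 2 is the highest point of both groups for Rnf146, Trip12, Dtx2, Smarca5 and Aifm1 and the lowest for Chd1l and Chfr.

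Levels per length ordered the genes over a wide range. Mean RPKM over the 6 dishes was 48.2 for H2afy and 45.9 for Smarca5, at the 88.7 and 88.1 percentiles of the tested genes. These neighbours did not separate, since H2afy was above Smarca5 in 4 of 6 dishes. Aifm1 followed at 34.1 (83.7 percentile) and Trip12 at 21.2 (74.2), each below the gene before it in 6 of 6 dishes. Dtx2, at 9.96, sat near the middle of the tested genes (55.3). Rnf146 at 4.79, Chfr at 4.66 and Chd1l at 4.32 lay close together between the 34.4 and 36.7 percentiles. Rnf146 exceeded Chfr in only 3 of 6 dishes, whereas Chfr exceeded Chd1l in 6 of 6. H2afy2 came last at 0.116, a mean 37.3 times lower than that of Chd1l.

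**Figure D3:**
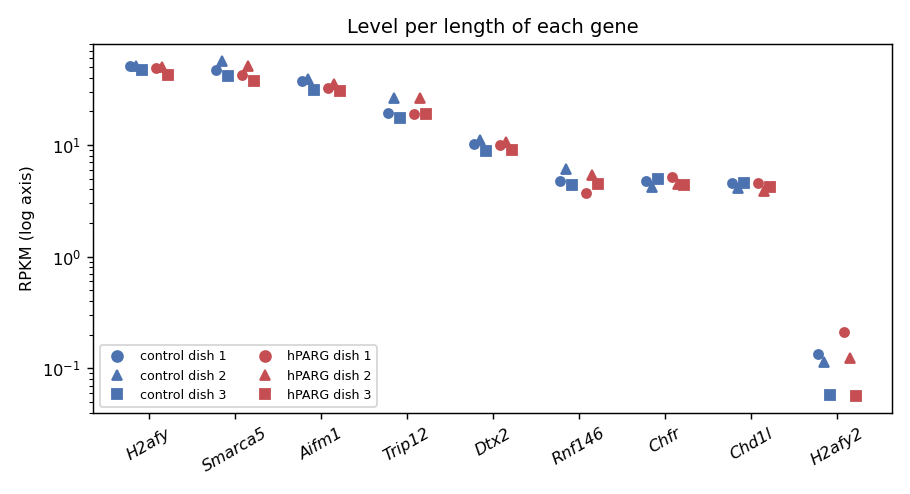
RPKM (vertical axis, log scale) of the 9 genes in order of their mean over 6 dishes, with control dishes in blue and hPARG dishes in red (circles, triangles and squares are dishes 1, 2 and 3). H2afy and Smarca5 share the top between 37.4 and 56.7, and H2afy2 lies between 0.0559 and 0.211.

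The order depended on the length used. Gene lengths implied by the deposited RPKM were scaled so that H2afy2 had the exon length of its coding transcript. H2afy (2137 bases), Smarca5 (6113), Chd1l, Rnf146 and Aifm1 then also matched the joint exon length of their coding transcripts. Chfr (3893 against 3652 bases), Dtx2 (2809 against 2734) and Trip12 (9953 against 9946) were longer. With the length of all annotated exons, 6809 bases for H2afy and 7777 for Smarca5, Smarca5 and Aifm1 ranked 1 and 2. H2afy then ranked 3, and Dtx2 moved from rank 5 to rank 7. Trip12, Chd1l and H2afy2 kept ranks 4, 8 and 9.

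For several genes the deviation of dish 2 was larger than the difference between the groups. Trip12 in dish 2 was 0.44 above the mean of dishes 1 and 3 on the log2 CPM scale in control and 0.42 in hPARG. The corresponding offsets were 0.34 and 0.35 for Rnf146 and 0.29 and 0.29 for Smarca5, so these 3 genes were more than 0.2 higher in both groups, as were 22.9% of all tested genes. Chd1l was lower in both, by offsets of -0.21 and -0.23, as were 21.2% of all genes. Aifm1 (0.12 and 0.12) and Dtx2 (0.14 and 0.09) were moderately higher, Chfr differed more in control (-0.28) than in hPARG (-0.12), and H2afy was nearly level (-0.01 and 0.07). In both groups the offsets of Trip12, Rnf146, Smarca5 and Chd1l exceeded in size the largest group difference of the set, 0.12. Over all tested genes the offset moved with exon length, from a median of -0.28 in control and -0.29 in hPARG in the fifth of genes with the shortest exons to 0.30 and 0.30 in the longest. Trip12, with 16601 exon bases, belongs to the longest of these groups. Length did not order the other members closely, since Rnf146 (4456 bases) and Chfr (4437 bases) have almost equal length and opposite offsets.

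**Figure D4:**
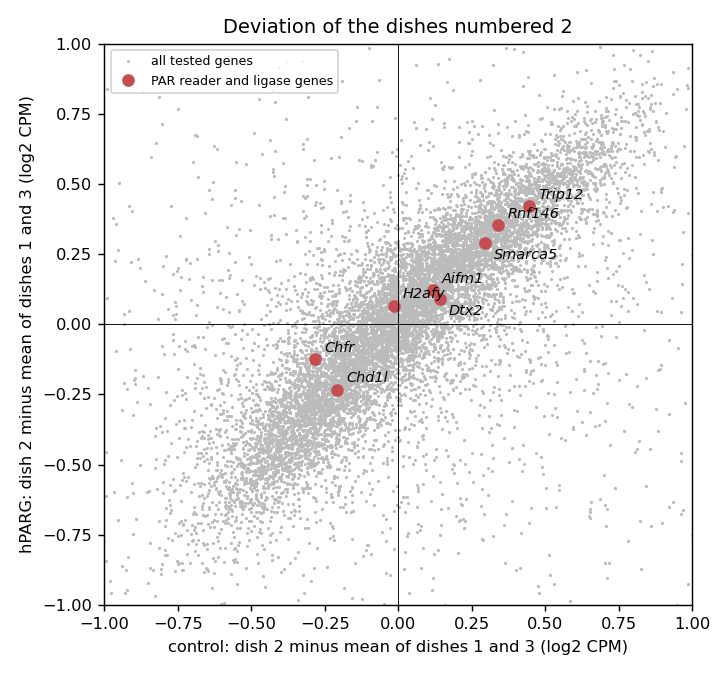
Offset of dish 2 from the mean of dishes 1 and 3 in log2 CPM, in control (horizontal axis) and hPARG (vertical axis), for all tested genes (grey) and the 8 tested reader and ligase genes (red). Trip12, Rnf146 and Smarca5 lie at the upper right and Chd1l and Chfr at the lower left, while 234 of the 11509 genes lie beyond the plotted range of 1 in either direction.

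Without both dishes numbered 2, the values of the 8 genes ran from -0.12 to 0.08 with SEs of 0.0885 to 0.123, and 0 were called, beside 0.345% of all genes. The lowest FDR was 0.890 (Smarca5, -0.12), in a comparison of 2 against 2 dishes.

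The wider set of 60 genes around the polymer gave a similar picture. Of these 55 passed the filter, 0 were called, and 2 had an unadjusted p under 0.05, beside 3.95% of all genes. Their median log2 fold change was -0.03, with 23 values above 0 and 32 below, beside a median of 0.0038 with 5863 above and 5646 below for all tested genes. The groups did not overlap for 3 of the 55 (Parp12, Axin1 and H2afx), beside 9.62%.

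Among 8 other WWE domain genes 7 were tested. Parp12, which encodes a mono-ADP-ribosyltransferase of the interferon response, had 21.2, 20.3 and 20.5 CPM in control and 18.7, 15.8 and 14.3 in hPARG dishes. All hPARG dishes were below all control dishes, but the log2 fold change of -0.35 (SE 0.124, unadjusted p = 0.0238) did not pass adjustment (FDR 0.999 by edgeR). Parp14, another such enzyme with macrodomains as well as a WWE domain, had 16.6, 31.2 and 18.1 CPM in control and 12.8, 21.5 and 13.8 in hPARG dishes. Dish 2 was the highest of each group, each hPARG value was below the control value of the same number, and the groups overlapped (log2 fold change -0.45, SE 0.287). The 7 genes had a median of -0.06, with 2 above 0 and 5 below.

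The other macrodomain genes gave 4 tested of 5, with a median of -0.12. Macrod1, an ADP-ribose hydrolase, had a log2 fold change of 0.38 (SE 0.283) that came mainly from hPARG dish 1 (4.72 CPM, against 2.31 to 2.93 in the other dishes). Parp9, which pairs with the ligase Dtx3l, was at -0.16 (SE 0.130) and Dtx3l itself at -0.17 (SE 0.153). The 2 other PBZ genes, Aplf and Dclre1a, which encode a histone chaperone of end joining and a crosslink repair nuclease, were at -0.0077 and -0.03.

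Readers with other folds did not pass the test either. In the list of BRCT, FHA and OB-fold readers, 7 of 7 were tested with a median of -0.08. Xrcc1, the scaffold of single-strand break repair, was at -0.13 (SE 0.102) and Aptx, which removes blocking groups from broken ends, at 0.14 (SE 0.134). All 7 RNA-binding readers were tested with a median of -0.0090, where Taf15 had 0.22 (SE 0.145) and Sfpq -0.15 (SE 0.166).

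Partners of the ligases and of SNF2H were also tested. Of 9 ISWI partners 7 passed the filter with a median of 0.012. Bptf, the largest subunit of NURF, was at 0.26 (SE 0.295) and Rsf1 at 0.18 (SE 0.210), both with the highest CPM in dish 2 of each group. All 6 tankyrase and substrate genes passed, with a median of -0.02. Axin1, the scaffold of beta-catenin destruction that RNF146 can target, had 126.6, 134.6 and 121.7 CPM in control and 118.1, 118.8 and 112.1 in hPARG dishes. These groups did not overlap, yet the difference was small (log2 fold change -0.13, SE 0.0917, unadjusted p = 0.183). Sh3bp2, an adaptor degraded by the same route, was at -0.24 (SE 0.182). The 7 ubiquitin partners and targets had a median of -0.08, with Rnf8, the ligase that opens the ubiquitin response at breaks, at -0.13 (SE 0.114).

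Histone H2A variants other than macroH2A were measured for comparison with H2afy, and all 4 passed the filter with a median of 0.03. H2afx encodes H2AX, the variant phosphorylated at DNA breaks. It had 51.1, 48.5 and 54.9 CPM in control and 62.7, 57.8 and 61.1 in hPARG dishes, with no overlap. The log2 fold change of 0.23 (SE 0.0970, unadjusted p = 0.0440) did not pass adjustment (FDR 0.999 by edgeR). H2afj was at -0.09 (SE 0.196). Among 4 PAR enzymes, which are outside the 60 genes, with a median of -0.02, the smallest p belonged to Adprhl2, which encodes the serine ADP-ribose hydrolase ARH3 (-0.14, SE 0.139). Of 5 AIF relatives and partners 4 were tested with a median of 0.016, among them Mif, a nuclease partner of AIF in parthanatos (0.19, SE 0.164), and Endog, a mitochondrial nuclease with 10 to 20 counts per dish (-0.30, SE 0.383).

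**Figure D5:**
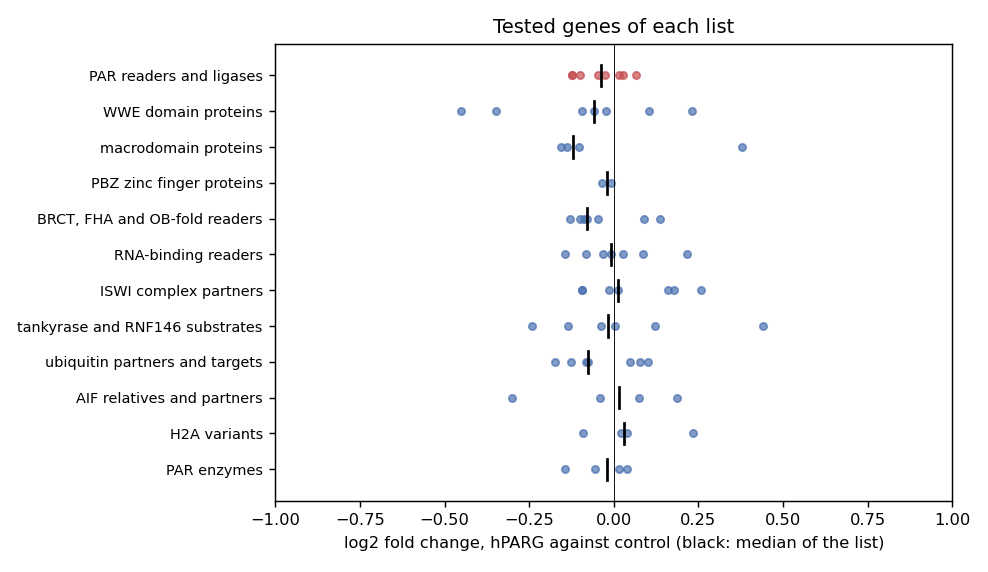
Fitted log2 fold change (horizontal axis, hPARG against control) of every tested gene in each list (points; the 8 reader and ligase genes in red), with the median of the list as a black line. All medians lie between -0.12 and 0.03, and the 2 leftmost points are Parp14 and Parp12.

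The promoters of the genes had letters of common motifs at mixed rates. Both strands of each 300-base window were searched in all 9 genes and in 32851 RefSeq promoters, and Rnf146 has a second entry that was not used in the counts. The NRF1 letters GCGCATGC were found in Smarca5 and Aifm1, 2 of 9 beside 2.71% of all promoters, starting 121 and 44 bases before the start site. CCAAT was present in 4 of 9 (37.4% of all), GGGCGG, the SP1 letters, in 3 of 9 (35.7%), and TATAAA in 1 of 9 (13.6%), Dtx2. The ETS letters CCGGAAG were in 0 of 9 (8.86%). A match shows only that the letters are present. The NRF1, SP1 and ETS letters each contain a CpG, and the 32851 promoters were not matched for CpG content. The windows counted held 8 (Rnf146) to 37 CpG (H2afy and Trip12), beside a median of 7 over all promoters. The part of CpG content in these rates was not tested.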

How the data were processed

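Poly(A) RNA of 6 dishes was sequenced by the authors as 150 bp paired-end reads, which were mapped to GRCm38 with Ensembl release 96 in CLC Genomics Workbench 12.0. Use of strand in counting is not given in the sources used here. The authors deposited counts per gene (whole numbers, not normalized) and RPKM values (counts divided by gene length and library total). The deposited TPM and CPM columns and the authors' own comparison columns (fold changes and p-values) were not used. The labels name wells of a plate and the methods name dishes, and dish is used here.

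Genes were filtered with edgeR's filterByExpr (minimum count 10), scaled by TMM and tested for the group effect by edgeR 4.0.16 under R 4.3.3 with limma 3.58.1 (glmQLFit, glmQLFTest), with no block. FDR was taken over all 11509 tested genes, with calls under 0.05, at any fold and over 2-fold. CPM used TMM library sizes. SE was the absolute log2 fold change over the square root of F. Correlations used log2 CPM with a prior count of 2. Ratios of RPKM were compared by exact permutation tests. Counts at or under 3 per dish were treated as the floor. Coordinates come from GENCODE M21 (GRCm38) and promoters from RefSeq (GRCm38.p6), where all 9 genes matched, H2afy and H2afy2 through synonyms. The fit was tested on simulated counts drawn independently for each dish. The deviation shared by the dishes numbered 2 was not simulated.

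Besides the 9 genes and those of the ratios, each list's called genes were named, or otherwise its 2 genes with the smallest p, with the 3 genes most like Aifm1. Outside this rule, Dtx3l, mouse Parg, Adgre1, Epcam, Ptprc, Pecam1, Krt8, Cdh5 and the genes that overlap members were named for their relation to a named gene, a list or the transgene. Members and lists were chosen with earlier results of these data known. Alternatives were RLE factors, library size only, no filter, 10 counts in every dish, DESeq2 1.42.0, the replicate block, leaving out each dish or both dishes numbered 2, a pseudocount of 1 on RPKM and, chosen after seeing the data, the length of all annotated exons for the order of levels.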

Additional observations from a re-analysis of the deposited data

How the results depend on the processing

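No reader or ligase gene was called in any of the 13 alternatives. Directions reversed for Dtx2 with library size only (-0.014) and for Chfr without both dishes numbered 2 (-0.014). With each dish left out in turn, log2 fold changes ran from -0.082 to 0.0077 for H2afy, -0.093 to 0.048 for Chd1l, -0.060 to 0.10 for Chfr, -0.25 to -0.00063 for Rnf146, -0.089 to 0.23 for Trip12, -0.042 to 0.063 for Dtx2, -0.23 to -0.018 for Smarca5 and -0.16 to -0.060 for Aifm1. The log2 ratio difference ran from -0.75 to 0.091 for H2afy to H2afy2, -0.41 to 0.078 for Smarca5 to Smarca1, where Smarca1 counts at the floor make the test void, and -0.20 to -0.13 for Aifm1 to Aifm2. With a pseudocount of 1 on RPKM, the difference for H2afy to H2afy2 was -0.11 (exact permutation test, p = 0.1). This pseudocount exceeds the H2afy2 RPKM of every dish (0.0559 to 0.211). The value then mostly follows H2afy, so no difference in the ratio is read from it. The cause of the reversals was not tested.

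Same-numbered dishes deviated together with r of 0.0963, 0.61 and 0.168 for numbers 1 to 3, and hPARG dish 1 correlated more with control dish 3 (0.335), so the numbers were not taken to pair the dishes. With the replicate block 330 genes were called (2.87%), 23 of them over 2-fold. None of the reader and ligase genes was called in this edgeR fit. In that fit 1 of the 8 tested, Smarca5 (-0.12, SE 0.0510), had an unadjusted edgeR p under 0.05, beside 17.9% of all tested genes, and its FDR was 0.236. Of the 60 genes around the polymer 1 was called, Parp14 (-0.44, FDR 0.0157), and 12 of the 55 tested had an unadjusted p under 0.05, beside the same 17.9%. The ratio of Aifm1 to Aifm2 had p = 0.25 by the paired exact test, the smallest that 3 pairs allow. Over all genes, calls numbered 10 in the design without a block, 48 with DESeq2, 40 without both dishes numbered 2, 16 with no filter, 3 without hPARG dish 1 and 5 without hPARG dish 3. Depth limits H2afy2 and the 5 untested genes among the 60, Smarca1, Dtx1, Macrod2, Aifm3 and Cecr2, which had 0 to 10 counts per dish.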
